A study of Homo sapiens with 21 samples.

Results

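The 40 genes described here belong to squamous differentiation and cell adhesion: 9 transcription factors of stratified epithelia, 12 cornified envelope genes, SFN and PERP, 9 desmosome genes, 5 S100 genes and 3 clade B serpin genes. They come from a list of symbols, made with earlier results of these data known, that left keratins out. Each matched 1 of the 60668 gene identifiers in both count tables. Their levels were measured by polyA-selected RNA-seq in 21 libraries of HCC1806, an established human triple-negative breast cancer cell line that was derived from an acantholytic squamous carcinoma of the breast, grown as adherent cultures. The first table held 3 libraries each of cells labelled as a control (3xCTL), cells labelled 3xSR, which the series title gives as overexpressing SRSF2, SRSF3 and SRSF7 together, and cells labelled MYC-OE. The second held 3 libraries each of a single plasmid control (1xCtrl) and of 3 lines in which the labels name 1 overexpressed gene (SRSF2-OE, SRSF3-OE, SRSF7-OE). SRSF2, SRSF3 and SRSF7 are splicing factors of the SR protein family, and MYC is a transcription factor. Vectors, promoters and whether a line is a clone or a pool are not given in the labels used here, and neither is whether replicates were separate cultures, so p-values measure the spread between these libraries, which may be technical.

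Stratified squamous cells build an insoluble shell, the cornified envelope, under the plasma membrane as they mature. Involucrin (IVL) and the small proline-rich proteins (SPRR genes) are its soluble precursors, transglutaminase 1 (TGM1) cross-links them, and envoplakin (EVPL) and periplakin (PPL) form the scaffold on which this starts. Many of these genes lie together with S100 genes in the epidermal differentiation complex of chromosome 1. Desmosomes join neighbouring cells: desmogleins and desmocollins (DSG and DSC genes) are the cadherins that cross the gap, plakoglobin (JUP) and plakophilins (PKP genes) bind their tails, and desmoplakin (DSP) ties them to keratin filaments. TP63 is the lineage factor of basal squamous cells, and KLF4, GRHL, OVOL1 and the ETS factors ELF3 and EHF act in the differentiation that follows.

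Promoters are shown first, because most of the cornified envelope promoters matched hold the AP-1 letters. RefSeq promoters (GRCh38.p14) were matched for 31 of the 40 genes, and the 250 bases before the annotated start were searched on both strands. The AP-1 motif TGANTCA, the site of the FOS and JUN factors, was found in 10 of 31 members (32.3%) and in 6.6% of 27305 promoters of the same length. It was present in 6 of the 7 cornified envelope promoters matched (IVL, SPRR1A, SPRR1B, SPRR2A, SPRR3 and SCEL, not CNFN), in SFN and PERP, in S100A2 and SERPINB5, and in 0 of 7 desmosome promoters. The GRHL motif AACCNGTT was found in 1 member, S100A9, and in 1.48% of all promoters. The ETS motif AGGAAGT was in 4 members (IVL, SPRR2A, SPRR3 and KLF4; 7.1% of all promoters), and the KLF motif CCNCNCCC was in 21 (67.7%, against 52.4% of all). KLF matches overlapped each other in some promoters, and no AP-1, GRHL or ETS match overlapped one of another motif. A match describes the letters only. The 5 promoters below, each given 5′ to 3′ on the strand of its gene, are those of the envelope precursors with an AP-1 match, in capitals, and that of S100A9 has its GRHL match in capitals.
IVL, chr1:152908296-152908545, plus strand: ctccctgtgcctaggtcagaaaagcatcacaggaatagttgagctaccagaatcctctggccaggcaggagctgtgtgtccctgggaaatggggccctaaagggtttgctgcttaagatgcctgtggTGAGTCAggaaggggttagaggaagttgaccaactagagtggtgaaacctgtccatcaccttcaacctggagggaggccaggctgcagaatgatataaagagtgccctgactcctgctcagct
SPRR1A, chr1:152983831-152984080, plus strand: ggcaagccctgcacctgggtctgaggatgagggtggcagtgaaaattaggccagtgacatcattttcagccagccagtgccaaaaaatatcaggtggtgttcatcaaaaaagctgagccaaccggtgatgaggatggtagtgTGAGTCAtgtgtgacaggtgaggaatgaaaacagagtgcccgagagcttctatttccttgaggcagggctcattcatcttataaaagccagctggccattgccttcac
SPRR1B, chr1:153030953-153031202, plus strand: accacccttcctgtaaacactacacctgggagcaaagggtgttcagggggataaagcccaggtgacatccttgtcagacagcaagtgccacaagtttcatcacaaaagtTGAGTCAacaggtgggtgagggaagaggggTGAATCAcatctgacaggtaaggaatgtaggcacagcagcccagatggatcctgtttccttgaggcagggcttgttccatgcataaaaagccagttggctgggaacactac
SPRR2A, chr1:153057513-153057762, minus strand: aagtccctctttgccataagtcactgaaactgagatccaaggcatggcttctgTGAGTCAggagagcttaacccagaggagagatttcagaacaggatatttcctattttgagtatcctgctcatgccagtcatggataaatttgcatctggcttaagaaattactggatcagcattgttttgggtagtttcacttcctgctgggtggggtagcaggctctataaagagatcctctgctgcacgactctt
SPRR3, chr1:153001499-153001748, plus strand: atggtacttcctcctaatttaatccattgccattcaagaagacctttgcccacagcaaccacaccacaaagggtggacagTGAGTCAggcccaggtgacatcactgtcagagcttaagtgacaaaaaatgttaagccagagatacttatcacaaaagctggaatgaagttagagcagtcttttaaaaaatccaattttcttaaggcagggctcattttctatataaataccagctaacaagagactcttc
S100A9, chr1:153357604-153357853, plus strand: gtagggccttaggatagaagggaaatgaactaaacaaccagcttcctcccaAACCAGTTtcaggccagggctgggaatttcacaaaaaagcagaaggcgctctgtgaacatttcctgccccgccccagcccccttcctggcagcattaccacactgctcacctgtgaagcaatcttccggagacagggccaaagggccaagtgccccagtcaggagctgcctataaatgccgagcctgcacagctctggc
The AP-1 match began 123 bases before the start in IVL, 108 in SPRR1A, 197 in SPRR2A and 170 in SPRR3, and SPRR1B had one at 141 and another at 111. The GRHL match in S100A9 began at 199.

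Near-identical copies could share reads, so the transcripts were compared too. SERPINB3 and SERPINB4 have coding sequences of 1170 bases that were 95.2% identical (56 differences, GENCODE release 29), and their longest identical run was 129 bases, shorter than the 150-base reads named in the labels. The 90 coding bases where they differ most, with the 13 differing bases in capitals, are shown because both genes were among the most changed members.
SERPINB3, coding bases 969 to 1058: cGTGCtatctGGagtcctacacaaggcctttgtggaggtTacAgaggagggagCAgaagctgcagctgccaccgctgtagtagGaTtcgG
SERPINB4, coding bases 969 to 1058: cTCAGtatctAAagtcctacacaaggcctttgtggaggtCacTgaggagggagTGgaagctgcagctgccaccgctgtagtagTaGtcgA
SPRR1A and SPRR1B were 96.3% identical over 267 coding bases, and SPRR2A and SPRR2D 98.1% over 216. Of the 40 longest transcripts, 38 had no 150-base stretch found in a transcript of another gene. SPRR2A shared 10.5% of its stretches with SPRR2B or SPRR2E, and ELF3 6.23% with AL691482.3. How many reads of these partners entered their counts cannot be told from such shares. SPRR2E was itself called higher in 3xSR and MYC-OE, and its part in the SPRR2A counts was not tested. In exon bases, ELF3 shares 664 of 7191 with AL691482.3 on its own strand and with ELF3-AS1 on the other. OVOL1 shares 1044 of 3849 with AP001266.1, SERPINB3 620 of 1777 with SERPINB11, DSG2 171 of 6190 with DSG2-AS1, SCEL 144 of 4205 with SCEL-AS1 and GRHL2 50 of 6060 with AP001207.3, all on the opposite strand. Whether counting used the strand is not given in the sources used here, so reads of these partners cannot be told apart.

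Total counts lay between 143269192 and 303323552 per library, and 3 counts, taken as the floor, were worth 0.00947 to 0.021 CPM (counts per mega-count, with library totals scaled by TMM). All 40 genes passed the filter on low counts in both tables, and SPRR2A, at 0 to 63 counts per library, was the lowest. The overexpressed genes were higher where labelled for SRSF3 (log2 fold change 0.31 in 3xSR and 0.49 in SRSF3-OE), SRSF7 (0.44 in 3xSR and 0.26 in SRSF7-OE) and MYC (0.90 in MYC-OE), each with an edgeR adjusted p under the threshold of 0.05 (0.00243, 0.000193, 3.57e-05, 0.00616 and 5.7e-08 in this order). SRSF2 was not higher in libraries labelled SRSF2-OE (-0.16, edgeR adjusted p = 0.098) or 3xSR (-0.06, edgeR adjusted p = 0.389), so directions given for both lines refer to libraries by their labels alone. MYC was also higher in libraries labelled 3xSR (0.75), in SRSF3-OE (0.26) and in SRSF7-OE (0.27), with edgeR adjusted p = 4.01e-07, 0.00406 and 0.00608. SRSF3 and SRSF7 were higher in libraries labelled SRSF2-OE (0.30 and 0.24, edgeR adjusted p = 0.00794 and 0.00681). The basal epithelial markers KRT5, KRT14, KRT17, KRT6A, EGFR, ITGB4, EPCAM and CDH1 were all above 1 CPM on average in every group. Endothelial markers were all under 1 CPM, as were 5 of 7 fibroblast markers (COL1A2, COL3A1, DCN, PDGFRA and PDGFRB) and the immune markers PTPRC, CD3E and LYZ. The summed fibroblast list moved with the groups, from 47.5 to 49.7 CPM in 3xCTL to 23 to 26 in 3xSR and 19.3 to 19.4 in MYC-OE, and from 28.6 to 33.1 in 1xCtrl to between 15.4 and 24.1 in the single lines. The summed immune list, which held CD14 and CD68 besides the 3 genes named, moved the other way, from 7.55 to 13.1 CPM in 3xCTL to 17.7 to 21.5 in 3xSR and 34.7 to 38.5 in MYC-OE, and from 10.6 to 18.4 in 1xCtrl to between 21.6 and 33 in the single lines. Luminal markers, 3 of which (2 in 1xCtrl) were under 1 CPM, also moved as a sum, from 1074 to 1211 CPM in 3xCTL to 943 to 991 in 3xSR and 1380 to 1397 in MYC-OE, and from 803 to 994 in 1xCtrl to 1032 to 1129.6 in SRSF2-OE, 772 to 845 in SRSF3-OE and 1187 to 1249.7 in SRSF7-OE. By edgeR, 6 of these 8 genes passed in MYC-OE and 6 in SRSF7-OE, 5 higher and 1 lower in each. In 3xSR 4 passed (1 higher, 3 lower), in SRSF2-OE 5 (3 higher, 2 lower) and in SRSF3-OE 3 (all lower). As shares these were 50%, 75%, 62.5%, 37.5% and 75% in the order 3xSR, MYC-OE, SRSF2-OE, SRSF3-OE and SRSF7-OE. Those of all genes were 29%, 35.3%, 23.5%, 29.2% and 17.3%. Within the immune list CD68 was called higher and CD14 lower in 3xSR, SRSF2-OE and SRSF3-OE. The part of these lists in the results was not tested. In RNA from whole cultures, fewer cells that express a gene and less RNA per cell cannot be told apart.

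Control libraries differed in GC-rich genes. In 1xCtrl replicate 2, the 1 in 5 genes richest in GC lay 0.38 above the group mean on the log2 scale and the 1 in 5 poorest at -0.17, a difference of 0.55, against -0.18 and -0.36 in replicates 1 and 3. Among 3xCTL libraries replicate 2 stood apart the other way (-0.33, against 0.16 and 0.17). In the overexpressing lines this difference lay between -0.18 and 0.13. Members rich in GC followed: EVPL (65% GC) measured 47.5, 103 and 38.2 CPM in 1xCtrl replicates 1 to 3, and PKP3 (66.7% GC) measured 26.2, 60.5 and 20.6. Where leaving out either library changed a call of a member, the value without it is given with that member.

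**Figure D1:**
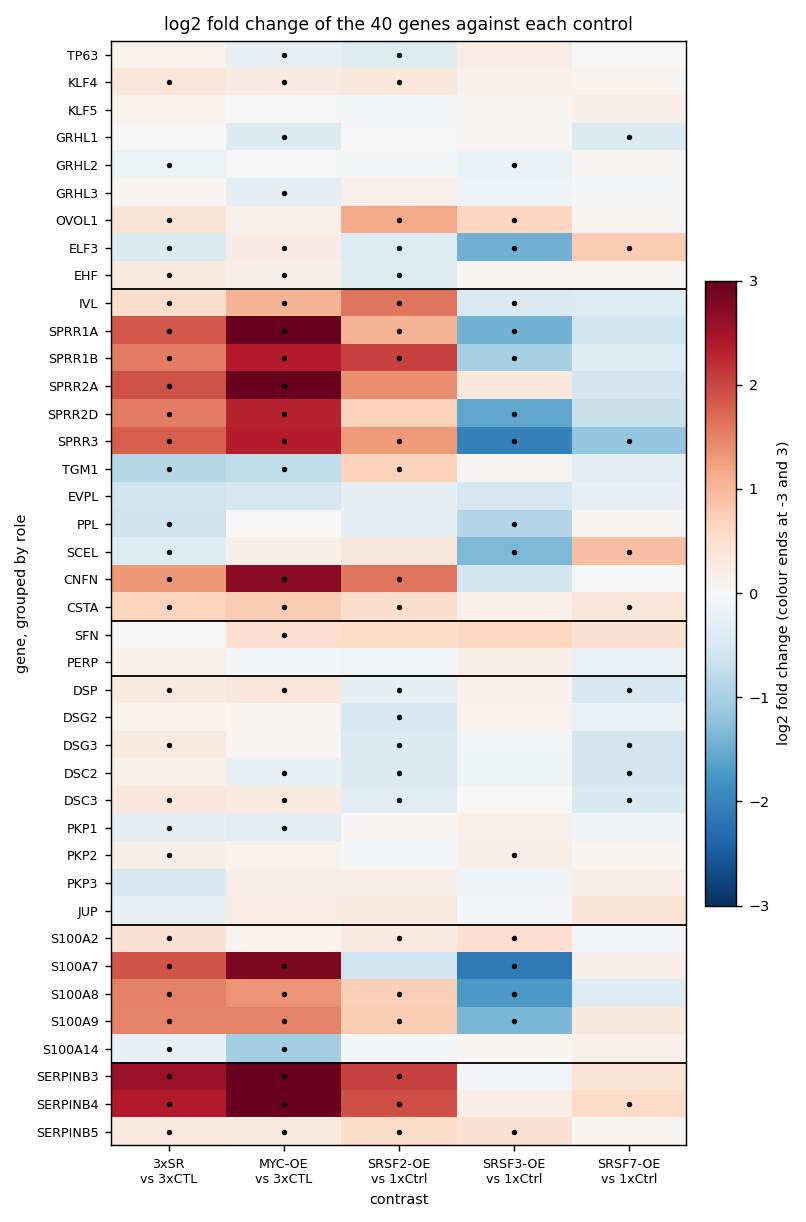
Heatmap of log2 fold changes of the 40 genes (rows, in blocks by role: transcription factors, cornified envelope, SFN and PERP, desmosome, S100, serpins) in the 5 contrasts against a control (columns); red is higher in the overexpressing line, blue is lower, and a dot marks an edgeR adjusted p under 0.05. SPRR, S100A7 to S100A9 and SERPINB3 and SERPINB4 rows are red in the first 2 columns, and SPRR1A, SPRR1B, SPRR2D, SPRR3 and S100A7 to S100A9 are blue with a dot in the SRSF3-OE column.

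In libraries labelled 3xSR, 29 of the 40 genes passed the test against 3xCTL, 22 higher and 7 lower, where 29% of 23160 genes tested passed (15.3% higher and 13.7% lower). In MYC-OE 27 passed, 20 higher and 7 lower, where 35.3% of all genes passed (18% and 17.3%). Both contrasts share the 3xCTL libraries. Since the list was made with earlier results known, a larger share among its genes than among all genes is not a test of it. Against 1xCtrl, 23 passed in libraries labelled SRSF2-OE (15 higher, 8 lower), 16 in SRSF3-OE (4 higher, 12 lower) and 10 in SRSF7-OE (4 higher, 6 lower), where 23.5%, 29.2% and 17.3% of 24362 genes passed. By direction, the shares of all genes were 11.6% higher and 11.9% lower in SRSF2-OE, 15% and 14.1% in SRSF3-OE, and 9.03% and 8.26% in SRSF7-OE. The median log2 fold change of the 40 genes was 0.27, 0.21, 0.24, -0.05 and 0.00 in the 5 contrasts in this order, beside 0.00, 0.00, -0.01, -0.03 and 0.00 for all genes tested. The count in SRSF7-OE was 18 without 1xCtrl replicate 2 and 20 with each library's GC trend removed, and the count in SRSF3-OE with that trend removed was 22 (8 higher, 14 lower). Leaving out 3xCTL replicate 2 gave 36 in 3xSR and 29 in MYC-OE, and leaving out 1xCtrl replicate 2 gave 25 in SRSF2-OE and 17 in SRSF3-OE.

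Levels are best compared between genes per length. In 3xCTL the highest members were S100A2 (558 CPM per kilobase of longest transcript), PERP (273), S100A14 (133), SERPINB5 (117) and SFN (96.4), and in 1xCtrl S100A2 (543), PERP (285), SERPINB5 (111), DSP (106) and SFN (87.3). TP63 stood at 33.6 and 38.2 CPM per kilobase in the 2 controls. The envelope precursors were lower: SPRR1B stood at 7.54 and 10.1, IVL at 3.18 and 2.07, SPRR3 at 3.12 and 4.34, and SPRR2A was last with 0.0245 and 0.0601.

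Among the transcription factors, 2 to 6 of 9 passed in each contrast, and ELF3 passed in all 5, in both directions. The shares of these factors were 55.6%, 66.7%, 55.6%, 33.3% and 22.2% in the order 3xSR, MYC-OE, SRSF2-OE, SRSF3-OE and SRSF7-OE. Beside them, 29%, 35.3%, 23.5%, 29.2% and 17.3% of all genes passed. In SRSF3-OE and SRSF7-OE the share was near that of all genes. ELF3, an ETS factor of epithelial differentiation (chromosome 1, 202007945 to 202017188, GENCODE release 29), measured 47, 55.5 and 44.6 CPM in 1xCtrl replicates 1 to 3, 17.8, 16.7 and 19.3 in SRSF3-OE and 88, 82.2 and 81.1 in SRSF7-OE. Each SRSF3-OE library was below each control and each SRSF7-OE library above. It thus fell in SRSF3-OE (edgeR log2 fold change -1.45, SE 0.082, adjusted p = 1.1e-07) and rose in SRSF7-OE (edgeR log2 fold change 0.77, SE 0.0804, adjusted p = 7.81e-05). The direct difference between these lines was 2.22 (log2, with SE 0.0838 and edgeR adjusted p = 2.11e-09). In libraries labelled SRSF2-OE ELF3 measured 38.1, 37.8 and 37.3 CPM, also below each control (edgeR log2 fold change -0.38, SE 0.0802, adjusted p = 0.00426). In the first table it measured 67.1, 53.7 and 70 CPM in 3xCTL, 45.6, 49.2 and 47.8 in libraries labelled 3xSR and 72.6, 78.5 and 75.5 in MYC-OE. All 3xSR values were below all controls and all MYC-OE values above (edgeR log2 fold change -0.42, SE 0.085, adjusted p = 0.00294; edgeR log2 fold change 0.25, SE 0.0846, adjusted p = 0.0392). The MYC-OE call was lost without any 1 of 3xCTL replicate 1 or MYC-OE replicate 1 or 2 or 3 (0.22 to 0.29, edgeR adjusted p 0.0573 to 0.128). It was also lost with total counts alone or a fit of the 2 groups alone (edgeR adjusted p from 0.0897 to 0.119). Without 3xCTL replicate 2 the value was 0.14, edgeR adjusted p = 0.0426.

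OVOL1, a zinc finger repressor active in epidermal differentiation, was higher in libraries labelled SRSF2-OE, with 23.5, 22.6 and 20.9 CPM against 9.06, 12.8 and 8.47 in 1xCtrl (edgeR log2 fold change 1.14, SE 0.127, adjusted p = 4.94e-05). It was also higher in SRSF3-OE, at 15.2, 15 and 17 CPM (edgeR log2 fold change 0.64, SE 0.126, adjusted p = 0.00197). In libraries labelled 3xSR it was higher, at 17.2, 16.8 and 16.5 against 14.6, 10.2 and 13.2 in 3xCTL (edgeR log2 fold change 0.41, SE 0.107, adjusted p = 0.0136). The groups did not overlap in any of these comparisons. Without 3xCTL replicate 2 the 3xSR value was 0.27, edgeR adjusted p = 0.00611. The call in SRSF3-OE was lost without any 1 of 1xCtrl replicate 1 or SRSF3-OE replicate 3 (0.49 to 0.51, edgeR adjusted p 0.053 to 0.0531). The test also missed the threshold with a fit of the 2 groups alone (edgeR adjusted p = 0.059). In SRSF7-OE its log2 fold change was 0.08 (edgeR adjusted p = 0.739), and without 1xCtrl replicate 2, the highest control, it was 0.30, edgeR adjusted p = 0.0134.

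TP63, the basal lineage factor, was lower in MYC-OE, at 147, 142 and 129.7 CPM against 170.3, 165 and 159 in 3xCTL (edgeR log2 fold change -0.24, SE 0.0626, adjusted p = 0.00989). It was also lower in libraries labelled SRSF2-OE, at 161, 139 and 138 against 201, 168 and 194 (edgeR log2 fold change -0.36, SE 0.0824, adjusted p = 0.00708). Its call in MYC-OE was lost without MYC-OE replicate 3 (-0.19, edgeR adjusted p = 0.051). In SRSF3-OE TP63 measured 234, 213 and 211 CPM and missed the threshold (edgeR log2 fold change 0.23, SE 0.0823, adjusted p = 0.0544). SRSF3-OE and libraries labelled SRSF2-OE differed directly by 0.58 (SE 0.0826, edgeR adjusted p = 0.000225). GRHL1, a grainyhead factor known to act on a desmosomal cadherin gene, was lower in MYC-OE, at 13.1, 12.9 and 12.3 CPM against 15.6, 17.8 and 17.5 (edgeR log2 fold change -0.41, SE 0.0704, adjusted p = 0.000731). It was lower in SRSF7-OE too, at 11.8, 12.7 and 10.7 against 15.3, 14.8 and 16.7 (edgeR log2 fold change -0.41, SE 0.0785, adjusted p = 0.00363). No library of either line reached its control. GRHL2 was lower in libraries labelled 3xSR and in SRSF3-OE (log2 fold changes -0.15 and -0.19, edgeR adjusted p = 0.0214 and 0.0188), and GRHL3 in MYC-OE (-0.26, edgeR adjusted p = 0.0394). The GRHL2 call in 3xSR was lost without any 1 of 3xSR replicate 1 or 3 (-0.16 to -0.15, edgeR adjusted p 0.0589 to 0.0615). This call was not made either with a fit of the 2 groups alone (edgeR adjusted p = 0.0601). With total counts alone the GRHL2 value in SRSF3-OE was -0.30, edgeR adjusted p = 0.000326. The call of GRHL3 was lost without any 1 of 3xCTL replicate 1 or 3 or MYC-OE replicate 1 or 2 or 3 (-0.30 to -0.18, edgeR adjusted p 0.0542 to 0.165). Nor did it pass with no filter or a fit of the 2 groups alone (edgeR adjusted p from 0.0658 to 0.0778).

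KLF4, which promotes barrier formation, was higher by 0.37 in libraries labelled 3xSR, 0.24 in MYC-OE and 0.32 in those labelled SRSF2-OE (edgeR adjusted p = 0.00343, 0.0282 and 0.00325). Its mean went from 11.6 ± 0.662 CPM (SD, n = 3) in 3xCTL to 15 ± 1.06 and 13.7 ± 0.746, and from 11.7 ± 0.349 in 1xCtrl to 14.6 ± 0.262. The MYC-OE call was lost without any 1 of 3xCTL replicate 2 or 3 or MYC-OE replicate 1 or 2 (0.20 to 0.25, edgeR adjusted p 0.052 to 0.118). It was also lost with total counts alone (edgeR adjusted p = 0.0565). EHF, another epithelial ETS factor, was higher in 3xSR libraries and MYC-OE (0.27 and 0.17, edgeR adjusted p = 0.00169 and 0.0206) and lower in libraries labelled SRSF2-OE (-0.37, edgeR adjusted p = 0.00227). Its call in MYC-OE was lost without any 1 of 3xCTL replicate 3 or MYC-OE replicate 2 or 3 (0.14 to 0.17, edgeR adjusted p 0.0596 to 0.0733). KLF5, a factor of proliferating basal cells, passed in none of the 5 contrasts, with log2 fold changes from -0.04 to 0.19.

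**Figure D2:**
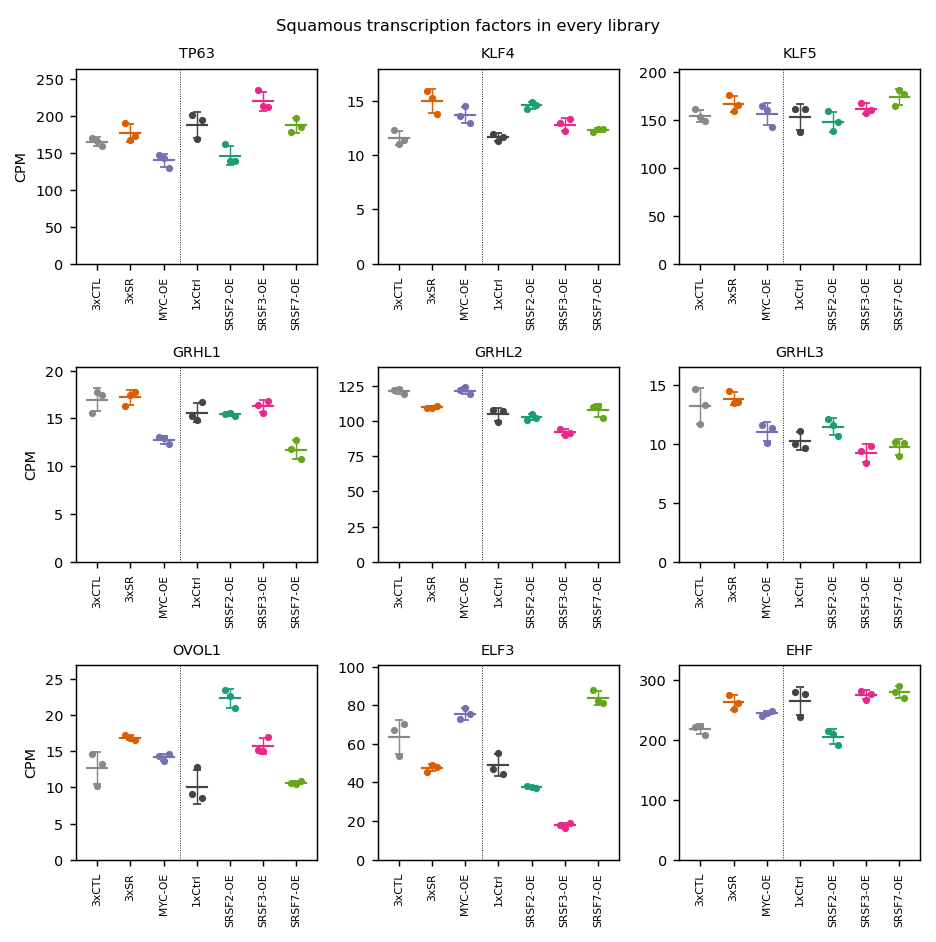
Level of each transcription factor in CPM (linear axis from 0) in every library of the 7 groups; points are libraries, bars the mean and SD of 3, and the dotted line parts the 2 tables, which were scaled separately. ELF3 lies at a mean of 17.9 CPM in SRSF3-OE and 83.8 in SRSF7-OE, on either side of its control at 49.

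Cornified envelope genes were called in every contrast, in differing directions. Their shares were 91.7%, 75%, 58.3%, 58.3% and 25% in the order 3xSR, MYC-OE, SRSF2-OE, SRSF3-OE and SRSF7-OE. Those of all genes were 29%, 35.3%, 23.5%, 29.2% and 17.3%. In libraries labelled 3xSR 11 of 12 passed, 8 higher and 3 lower, with a median log2 fold change of 0.98, and in MYC-OE 9 passed, 8 higher and 1 lower, with a median of 1.66. The genes called higher were IVL, the 5 SPRR genes, CNFN and CSTA, in either line; both contrasts use the 3xCTL libraries. In libraries labelled SRSF2-OE 7 were higher and none lower (median 0.86), in SRSF3-OE 7 were lower and none higher (median -0.74), and in SRSF7-OE 2 were higher and 1 lower (median -0.36).

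SPRR3, an envelope precursor of internal squamous epithelia, measured 3.03, 3.74 and 2.44 CPM in 3xCTL, 10.3, 10.8 and 10.6 in libraries labelled 3xSR and 16.3, 15.4 and 15.5 in MYC-OE. It rose 3.45-fold in libraries labelled 3xSR (edgeR log2 fold change 1.79, SE 0.125, adjusted p = 1.01e-06) and 5.13-fold in MYC-OE (edgeR log2 fold change 2.36, SE 0.127, adjusted p = 7.06e-08). In the second table it measured 4.12, 3.36 and 5.34 CPM in 1xCtrl, 10.2, 9.8 and 11 in libraries labelled SRSF2-OE, 1.12, 1.03 and 1.01 in SRSF3-OE and 1.8, 2.5 and 1.5 in SRSF7-OE. It rose 2.42-fold in the first of these lines (edgeR log2 fold change 1.28, SE 0.185, adjusted p = 0.000345). It fell 4.07-fold in SRSF3-OE (edgeR log2 fold change -2.02, SE 0.193, adjusted p = 7.94e-06) and fell 2.21-fold in SRSF7-OE (edgeR log2 fold change -1.15, SE 0.186, adjusted p = 0.00156). None of the 5 lines overlapped its control, and SPRR3 and ELF3 were the members that passed in all 5 contrasts.

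SPRR1A measured 0.767, 0.556 and 0.489 CPM in 3xCTL, 1.89, 2.5 and 2.26 in libraries labelled 3xSR and 4.49, 5.05 and 5.4 in MYC-OE. The 3 groups did not overlap, and it rose 3.65-fold in libraries labelled 3xSR (edgeR log2 fold change 1.87, SE 0.175, adjusted p = 1.02e-05) and 8.2-fold in MYC-OE (edgeR log2 fold change 3.04, SE 0.18, adjusted p = 1.44e-07). SPRR1B, its near-copy, went from 4.9, 4.32 and 4.82 CPM to 14.1, 14.5 and 12.7 and 24.3, 23.1 and 24.9 (edgeR log2 fold change 1.55, SE 0.0786, adjusted p = 6.85e-08; edgeR log2 fold change 2.36, SE 0.0802, adjusted p = 1.84e-09). In the second table SPRR1B measured 6.12, 6.98 and 5.6 CPM in 1xCtrl, 26.3, 22.6 and 28.5 in libraries labelled SRSF2-OE, 2.71, 3.08 and 3.58 in SRSF3-OE and 5.09, 4.13 and 5.07 in SRSF7-OE. It rose 4.13-fold in libraries labelled SRSF2-OE (edgeR log2 fold change 2.05, SE 0.134, adjusted p = 9.49e-07) and fell in SRSF3-OE (edgeR log2 fold change -1.0, SE 0.132, adjusted p = 0.000105). SPRR1A was higher in the former (edgeR log2 fold change 1.03, SE 0.205, adjusted p = 0.0028) and lower in SRSF3-OE (edgeR log2 fold change -1.42, SE 0.213, adjusted p = 0.000261). In SRSF7-OE neither passed (-0.59 and -0.39, edgeR adjusted p = 0.0696 and 0.0574), and both did without 1xCtrl replicate 3 (-0.76, edgeR adjusted p = 0.0418 for SPRR1A; -0.49, edgeR adjusted p = 0.0423 for SPRR1B).

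SPRR2D and SPRR2A were the lowest SPRR genes. SPRR2D had a mean of 0.177 ± 0.114 CPM (SD, n = 3) in 3xCTL, 0.504 ± 0.11 in libraries labelled 3xSR and 0.863 ± 0.0559 in MYC-OE, and was higher in both (1.53 and 2.30, edgeR adjusted p = 0.0122 and 0.000785). It was lower in SRSF3-OE (-1.56, edgeR adjusted p = 0.0105), a call lost without SRSF3-OE replicate 3 (-1.44, edgeR adjusted p = 0.054). SPRR2A had 2, 4 and 4 counts in 3xCTL replicates 1 to 3, 13, 13 and 8 in 3xSR libraries and 44, 63 and 39 in MYC-OE, and both increases passed (edgeR adjusted p = 0.0234 and 0.000231). With control counts this close to the floor of 3, no size is given for SPRR2A. The call in 3xSR was lost without any 1 of 3xCTL replicate 1 or 3xSR replicate 1 or 2 (edgeR adjusted p 0.0522 to 0.0851). The test also missed the threshold with limma-voom or a fit of the 2 groups alone (adjusted p from 0.0615 to 0.0636).

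Involucrin, an early envelope precursor, measured 3.79, 5.11 and 4.49 CPM in 1xCtrl and 12.5, 13.8 and 14.3 in libraries labelled SRSF2-OE, which all lay above. It rose 3.02-fold there (edgeR log2 fold change 1.60, SE 0.149, adjusted p = 1.3e-05). In MYC-OE IVL measured 12.7, 13.3 and 15.6 CPM against 7.49, 5.14 and 7.92 in 3xCTL (edgeR log2 fold change 1.02, SE 0.153, adjusted p = 0.000434). Libraries labelled 3xSR had 10.5, 10.1 and 8.72 (edgeR log2 fold change 0.52, SE 0.152, adjusted p = 0.0272). SRSF3-OE had 3.01, 2.78 and 4.14 CPM and overlapped 1xCtrl, although the test passed (edgeR log2 fold change -0.43, SE 0.147, adjusted p = 0.0416). The 3xSR call was lost without any 1 of 3xCTL replicate 1 or 3xSR replicate 1 or 2 (0.46 to 0.57, edgeR adjusted p 0.0545 to 0.1). This call was not made either with a fit of the 2 groups alone (edgeR adjusted p = 0.0505). The SRSF3-OE call was lost without any 1 of 1xCtrl replicate 2 or 3 or SRSF3-OE replicate 1 or 2 (-0.48 to -0.33, edgeR adjusted p 0.0622 to 0.136). Nor did it pass with the GC trend removed or a fit of the 2 groups alone (edgeR adjusted p from 0.119 to 0.136). Without SRSF3-OE replicate 3 the value was -0.68, edgeR adjusted p = 0.00601.

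CNFN, cornifelin, another envelope component, had a mean of 0.21 ± 0.002 CPM (SD, n = 3) in 3xCTL, 0.517 ± 0.0411 in libraries labelled 3xSR and 1.37 ± 0.11 in MYC-OE (1.30 and 2.70, edgeR adjusted p = 0.000146 and 2.61e-07). It was also higher in libraries labelled SRSF2-OE (1.60, edgeR adjusted p = 0.00308). CSTA, the protease inhibitor cystatin A, was higher in 4 lines: by 0.66 in 3xSR libraries, 0.76 in MYC-OE, 0.52 in libraries labelled SRSF2-OE and 0.37 in SRSF7-OE (edgeR adjusted p = 4.14e-05, 8.76e-06, 0.000407 and 0.00645). In SRSF7-OE it measured 65.9, 71.5 and 66 CPM, above 52.6, 46.7 and 58.5 in 1xCtrl. In SRSF3-OE the log2 fold change was 0.16 (edgeR adjusted p = 0.14), and without 1xCtrl replicate 3 it was 0.20, edgeR adjusted p = 0.0423.

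The cross-linking enzyme TGM1, the scaffold protein PPL and SCEL were lower in libraries labelled 3xSR, where the precursors were higher, and in MYC-OE TGM1 was the envelope gene called lower. TGM1 measured 3.62, 2.61 and 3.11 CPM in 3xCTL, 1.66, 2.04 and 1.45 in libraries labelled 3xSR and 1.61, 1.86 and 2.04 in MYC-OE, and fell 1.82-fold and 1.7-fold (edgeR log2 fold change -0.86, SE 0.164, adjusted p = 0.002; edgeR log2 fold change -0.76, SE 0.163, adjusted p = 0.00315). Neither line overlapped 3xCTL. In libraries labelled SRSF2-OE TGM1 was higher (edgeR log2 fold change 0.68, SE 0.216, adjusted p = 0.0366). It measured 2.87, 2.58 and 2.25 CPM there and 1.26, 2.16 and 1.38 in 1xCtrl. This call was lost without any 1 of 1xCtrl replicate 1 or 3 or SRSF2-OE replicate 1 or 2 or 3 (0.46 to 0.71, edgeR adjusted p 0.0917 to 0.238). It was also lost with total counts alone, no filter or a fit of the 2 groups alone (edgeR adjusted p from 0.0676 to 0.133). Periplakin measured 255, 208 and 260.3 CPM in 3xCTL and 157, 164 and 154 in libraries labelled 3xSR (edgeR log2 fold change -0.61, SE 0.0782, adjusted p = 0.000128). It measured 169, 241 and 157 in 1xCtrl and 104, 101 and 101 in SRSF3-OE (edgeR log2 fold change -0.89, SE 0.125, adjusted p = 0.000238). In MYC-OE its log2 fold change was -0.02 (edgeR adjusted p = 0.889), with 225, 240.4 and 249 CPM against its controls above. Sciellin (SCEL), an envelope-associated protein encoded on chromosome 13 from 77535674 to 77645263, measured 8.59, 8.07 and 8.05 CPM in 1xCtrl, 3.89, 2.74 and 3.09 in SRSF3-OE and 16.4, 15.4 and 14.7 in SRSF7-OE. It fell 2.54-fold in SRSF3-OE (edgeR log2 fold change -1.35, SE 0.112, adjusted p = 2.46e-06) and rose 1.88-fold in SRSF7-OE (edgeR log2 fold change 0.91, SE 0.11, adjusted p = 0.00023). These lines differed directly by 2.26 (edgeR adjusted p = 2.27e-08). In libraries labelled 3xSR it was lower (edgeR log2 fold change -0.38, SE 0.0941, adjusted p = 0.0102), and by less without 3xCTL replicate 2 (-0.24, edgeR adjusted p = 0.00643). In MYC-OE the SCEL value was 0.18 (edgeR adjusted p = 0.163), and it passed without that library (0.32, edgeR adjusted p = 0.00114). PPL in SRSF7-OE was at 0.09 (edgeR adjusted p = 0.693), and it passed without 1xCtrl replicate 2 (0.32, edgeR adjusted p = 0.00152), but not with the GC trend removed.

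Envoplakin passed in none of the 5 contrasts, with log2 fold changes of -0.60, -0.51, -0.26, -0.50 and -0.25 in the order 3xSR, MYC-OE, SRSF2-OE, SRSF3-OE and SRSF7-OE (edgeR adjusted p = 0.0509, 0.0741, 0.643, 0.313 and 0.677). With all libraries kept, DESeq2 and limma-voom each called it lower in 3xSR and in MYC-OE. In 3xSR it was also called lower with upper-quartile scaling, total counts alone or a minimum of 10 counts in every library. Its controls were spread, with 98.9, 56.8 and 90.5 CPM in 3xCTL. Without 3xCTL replicate 2 it was lower in both lines of the first table (-0.81, edgeR adjusted p = 5.6e-06 in 3xSR; -0.72, edgeR adjusted p = 1.25e-05 in MYC-OE). With each library's GC trend removed it was lower in 3xSR, MYC-OE, SRSF3-OE and SRSF7-OE (-0.29, -0.62, -0.21 and -0.36, edgeR adjusted p = 0.000292, 1.16e-07, 0.0174 and 0.000899).

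**Figure D3:**
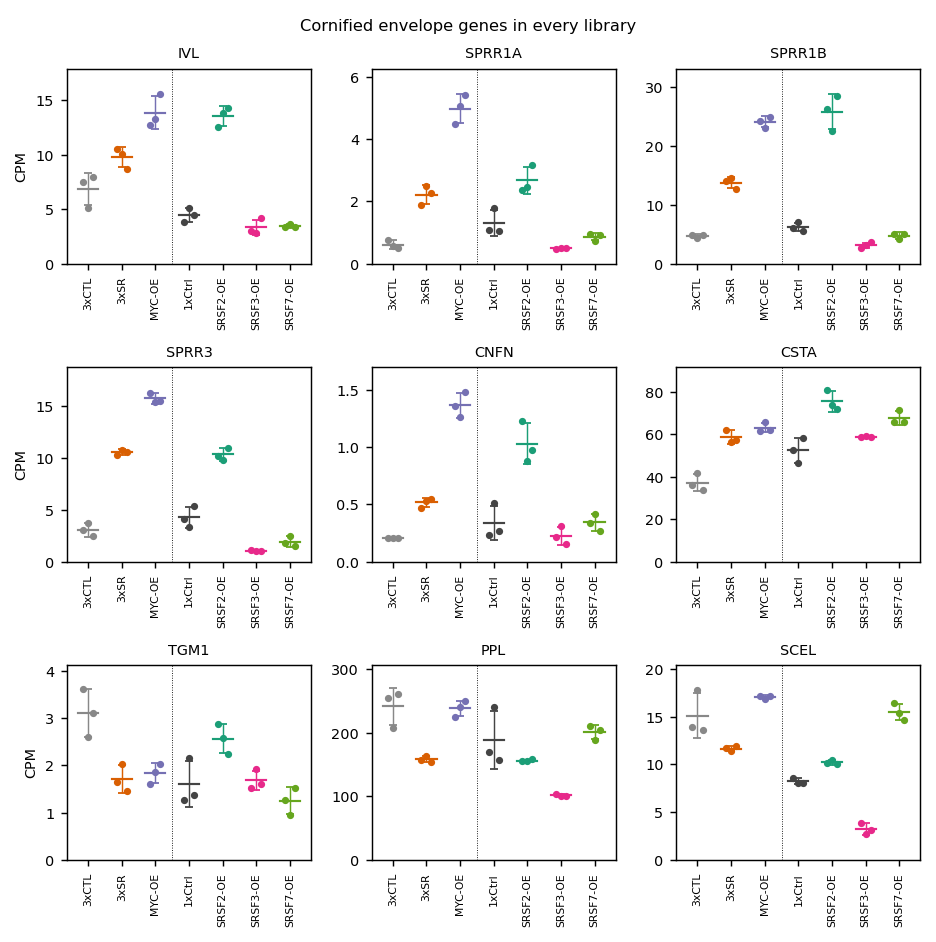
Level of 9 cornified envelope genes in CPM (linear axis from 0) in every library; points are libraries, bars the mean and SD of 3, and the dotted line parts the 2 tables. IVL, SPRR1A, SPRR1B, SPRR3 and CNFN are highest in MYC-OE within the first table and in SRSF2-OE within the second, while SCEL is lowest in SRSF3-OE, at a mean of 3.24 CPM.

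MYC-OE and libraries labelled 3xSR were compared directly, and 24 of the 40 genes differed, 16 higher and 8 lower in MYC-OE, where 34.9% of all genes passed (17.3% and 17.6%). Cornified envelope genes made up 8 of those higher: IVL, SPRR1A, SPRR1B, SPRR2A, SPRR3, PPL, SCEL and CNFN. SPRR1A was higher by 1.17 (SE 0.166), CNFN by 1.40 (SE 0.161) and SPRR1B by 0.81 (SE 0.0763), with edgeR adjusted p = 0.000254, 6.05e-05 and 1.53e-05. With the GC trend removed the IVL and PPL differences were 0.31 and 0.35, against 0.50 and 0.59. The IVL difference (0.50) was lost without any 1 of 3xSR replicate 2 or 3 or MYC-OE replicate 2 or 3 (0.41 to 0.54, edgeR adjusted p 0.0522 to 0.0948). The SPRR2A difference was lost without MYC-OE replicate 2 (edgeR adjusted p = 0.0836). In the second table SRSF3-OE was lower than libraries labelled SRSF2-OE in 9 of 12 envelope genes and higher in none, with log2 differences of -3.30 in SPRR3, -3.04 in SPRR1B and -2.03 in IVL (edgeR adjusted p = 3.13e-07, 3.16e-08 and 1.4e-06). Of all 40, 26 differed between these lines, 9 higher and 17 lower in SRSF3-OE, where 26.8% of all genes passed (14.1% and 12.6%). With upper-quartile scaling this split was 4 higher and 20 lower.

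The S100 genes encode small calcium-binding proteins. S100A8 and S100A9 pair as calprotectin, which keratinocytes make in inflamed or wounded skin, and S100A7 is psoriasin. In libraries labelled 3xSR all 5 genes passed (4 higher, 1 lower), in MYC-OE 4 (3 higher, 1 lower) and in libraries labelled SRSF2-OE 3 (all higher). In SRSF3-OE 4 passed (1 higher, 3 lower). In SRSF7-OE none of 5 passed by edgeR (3 at an unadjusted p under 0.05), and 0 by DESeq2 and 0 by limma-voom at an adjusted one. Of all genes 29%, 35.3%, 23.5%, 29.2% and 17.3% passed in the same order of lines. S100A8 measured 4.81, 5.16 and 5.11 CPM in 3xCTL, 14.1, 13.4 and 15.5 in libraries labelled 3xSR and 13.2, 12.5 and 12.8 in MYC-OE, all above the controls. It rose 2.86-fold (edgeR log2 fold change 1.51, SE 0.0769, adjusted p = 7.13e-08) and 2.56-fold (edgeR log2 fold change 1.35, SE 0.0765, adjusted p = 1.04e-07). S100A9 rose by 1.49 and 1.48, from 8.84 ± 0.669 CPM (SD, n = 3) to 24.9 ± 1.4 and 24.6 ± 2.44 (edgeR adjusted p = 1.85e-07 and 1.18e-07). In a direct comparison of MYC-OE with 3xSR libraries neither passed (-0.16 and -0.02, edgeR adjusted p = 0.119 and 0.901). Immune cells also carry calprotectin. Of 5 immune markers, PTPRC, CD3E and LYZ were under 1 CPM in every group, while CD68, a lysosomal protein abundant in macrophages, was higher in all 5 contrasts (1.08, 2.02, 0.82, 1.34 and 0.83 in the order 3xSR, MYC-OE, SRSF2-OE, SRSF3-OE and SRSF7-OE, edgeR adjusted p = 0.00342, 8.45e-05, 0.00264, 7.44e-05 and 0.00403). CD14 went the other way by edgeR, called lower in libraries labelled 3xSR and SRSF2-OE and in SRSF3-OE. It was not called in MYC-OE or SRSF7-OE, and its mean was under 1 CPM in SRSF2-OE and SRSF3-OE. The summed level of these 5 markers is given for each group above, and its part in the calprotectin result was not tested.

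Against 1xCtrl calprotectin was called in 2 of 3 lines. S100A8 measured 7.85, 8.41 and 10.9 CPM in 1xCtrl, 13.6, 15.8 and 15.3 in libraries labelled SRSF2-OE, 3, 2.13 and 3.07 in SRSF3-OE and 7.15, 7.49 and 6.18 in SRSF7-OE. It was higher in the first of these lines (edgeR log2 fold change 0.72, SE 0.151, adjusted p = 0.00389) and 3.31-fold lower in SRSF3-OE (edgeR log2 fold change -1.73, SE 0.156, adjusted p = 5.12e-06). S100A9 measured 11.3, 15 and 12.8 CPM in 1xCtrl and 4.33, 4.7 and 6.01 in SRSF3-OE, without overlap (edgeR log2 fold change -1.38, SE 0.135, adjusted p = 9.93e-06). It was higher in libraries labelled SRSF2-OE (edgeR log2 fold change 0.76, SE 0.132, adjusted p = 0.00121). In SRSF7-OE S100A9 had a log2 fold change of 0.32 (edgeR adjusted p = 0.115), and without 1xCtrl replicate 2 of 0.45, edgeR adjusted p = 0.0245. S100A7 was present at few counts: 21, 16 and 26 in 3xCTL, 63, 91 and 53 in 3xSR libraries, 203, 151 and 142 in MYC-OE, 12, 58 and 42 in 1xCtrl and 9, 6 and 10 in SRSF3-OE. It was higher in both lines of the first table (1.89 and 2.79, edgeR adjusted p = 0.000272 and 9.07e-06) and lower in SRSF3-OE (-2.12, edgeR adjusted p = 0.00728; limma-voom adjusted p = 0.0616).

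S100A2 and S100A14 differed from this pattern. S100A14, a membrane-associated S100 protein, measured 161, 165 and 158 CPM in 3xCTL, 143, 132 and 141 in libraries labelled 3xSR and 77.9, 80.9 and 77 in MYC-OE, and fell 2.06-fold in MYC-OE (edgeR log2 fold change -1.04, SE 0.0495, adjusted p = 2.41e-08). Its decrease in libraries labelled 3xSR was edgeR log2 fold change -0.22, SE 0.049, adjusted p = 0.005 (-0.14 with the GC trend removed), and the direct difference between the lines was -0.82 (edgeR adjusted p = 7.16e-07). S100A2, a TP63-regulated S100 gene of basal cells, measured 509, 607 and 555 CPM in 3xCTL and 767, 739.8 and 788 in libraries labelled 3xSR (edgeR log2 fold change 0.46, SE 0.0613, adjusted p = 0.000172). In 1xCtrl it measured 551, 486 and 589.6 and in SRSF3-OE 759, 776 and 775 (edgeR log2 fold change 0.51, SE 0.0855, adjusted p = 0.000627) in the line in which S100A7, S100A8 and S100A9 were lower. In libraries labelled SRSF2-OE S100A2 was higher by 0.28 (edgeR adjusted p = 0.0318). This call was lost without any 1 of 1xCtrl replicate 1 or 2 or SRSF2-OE replicate 1 or 3 (0.20 to 0.24, edgeR adjusted p 0.0552 to 0.0911). The test also missed the threshold with upper-quartile scaling or total counts alone (edgeR adjusted p from 0.053 to 0.0544). In MYC-OE its log2 fold change was 0.10 (edgeR adjusted p = 0.246), and without 3xCTL replicate 2 0.17, edgeR adjusted p = 0.0163. The 11 members on chromosome 1 between 152908545 and 153616986, from IVL to S100A14, included genes called in opposite directions in 3xSR, in MYC-OE and in SRSF3-OE.

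SERPINB3 and SERPINB4, the squamous cell carcinoma antigens, lie beside each other on chromosome 18 (63655197 to 63661963 and 63637259 to 63644298). SERPINB3 measured 1.06, 1.11 and 0.717 CPM in 3xCTL, 5.64, 5.76 and 6.07 in libraries labelled 3xSR and 8.95, 8.9 and 9.1 in MYC-OE. It rose 6.04-fold (edgeR log2 fold change 2.60, SE 0.142, adjusted p = 1.3e-07) and 9.32-fold (edgeR log2 fold change 3.22, SE 0.145, adjusted p = 1.5e-08). SERPINB4 measured 0.726, 0.858 and 0.572 CPM, 3.69, 3.54 and 4.07 and 5.76, 5.75 and 5.3 in the same groups (edgeR log2 fold change 2.39, SE 0.143, adjusted p = 2.71e-07; edgeR log2 fold change 2.96, SE 0.145, adjusted p = 3.08e-08). The 3 groups did not overlap for either gene, and MYC-OE exceeded libraries labelled 3xSR by 0.63 and 0.57 (edgeR adjusted p = 0.00316 and 0.00558).

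In the second table SERPINB3 measured 2.03, 1.71 and 2.37 CPM in 1xCtrl, 7.82, 8.29 and 8.97 in libraries labelled SRSF2-OE, 2.02, 1.59 and 2.14 in SRSF3-OE and 2.83, 3.04 and 2.19 in SRSF7-OE. Its 4.11-fold increase in the first of these lines passed (edgeR log2 fold change 2.04, SE 0.163, adjusted p = 4.55e-06). In SRSF3-OE and SRSF7-OE the log2 fold changes were -0.09 and 0.40 (edgeR adjusted p = 0.74 and 0.104). SERPINB4 went from 1.19, 1.29 and 1.5 CPM to 5.1, 4.9 and 5.14 in libraries labelled SRSF2-OE (edgeR log2 fold change 1.93, SE 0.128, adjusted p = 1.05e-06). It measured 1.84, 2.07 and 2.03 in SRSF7-OE (edgeR log2 fold change 0.58, SE 0.125, adjusted p = 0.00717). SRSF3-OE, where SPRR1A, SPRR1B, SPRR3, S100A8 and S100A9 were lower, measured 1.62, 1.32 and 1.62 (0.20, edgeR adjusted p = 0.268). SERPINB5 (maspin), a more abundant serpin of basal epithelial cells, was higher in libraries labelled 3xSR (0.29), in MYC-OE (0.26), in libraries labelled SRSF2-OE (0.54) and in SRSF3-OE (0.45), with edgeR adjusted p = 0.0111, 0.0168, 0.0014 and 0.00328. In SRSF3-OE it measured 449, 381 and 434 CPM against 318, 264 and 346 in 1xCtrl, all above. Its call in 3xSR was lost without any 1 of 3xCTL replicate 3 or 3xSR replicate 1 (0.22 to 0.23, edgeR adjusted p 0.0514 to 0.053). Its call in MYC-OE was lost without any 1 of 3xCTL replicate 3 or MYC-OE replicate 1 (0.21, edgeR adjusted p 0.0592 to 0.0791).

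**Figure D4:**
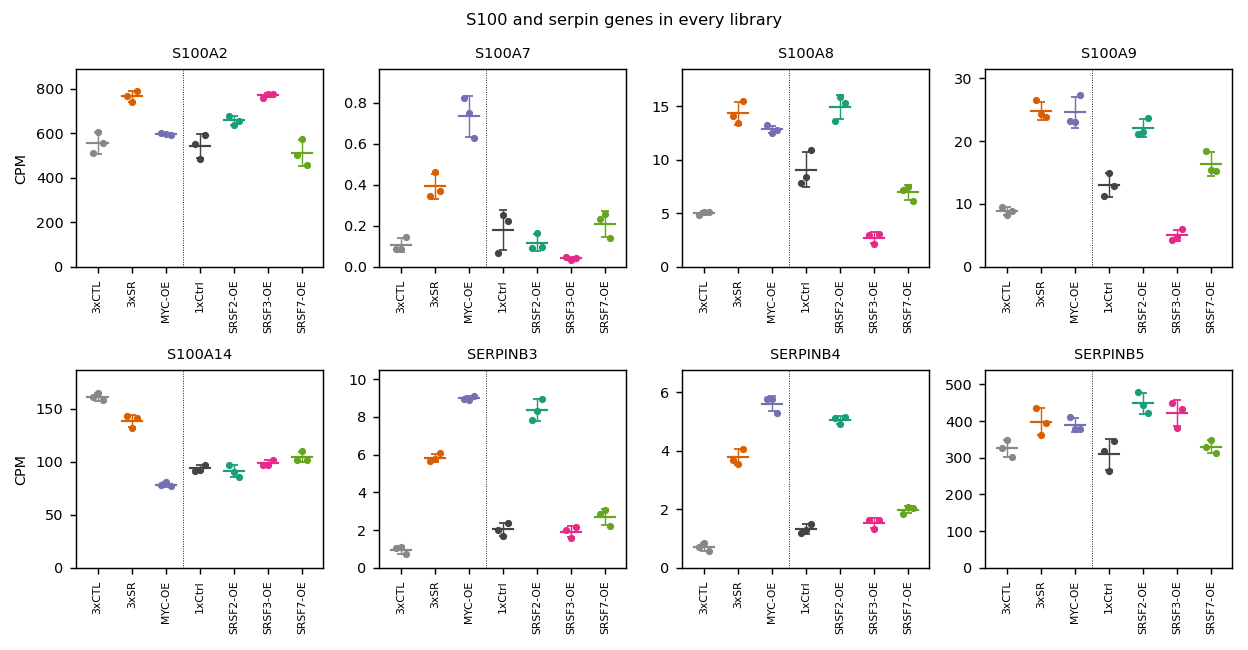
Level of S100 and serpin genes in CPM (linear axis from 0) in every library; points are libraries, bars the mean and SD of 3, and the dotted line parts the 2 tables. SERPINB3 and SERPINB4 are high in 3xSR, MYC-OE and SRSF2-OE, S100A8 and S100A9 are lowest in SRSF3-OE (means 2.73 and 5.02 CPM), and S100A14 is lowest in MYC-OE.

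Desmosome genes had log2 fold changes under 1 in size in every contrast. In libraries labelled 3xSR 5 of 9 passed (4 higher, 1 lower) and in MYC-OE 4 (2 higher, 2 lower). In libraries labelled SRSF2-OE 5 and in SRSF7-OE 4 passed, all lower, and in SRSF3-OE 1 passed, higher. As shares these were 55.6%, 44.4%, 55.6%, 11.1% and 44.4% in the order 3xSR, MYC-OE, SRSF2-OE, SRSF3-OE and SRSF7-OE. Of all genes 29%, 35.3%, 23.5%, 29.2% and 17.3% passed. The MYC-OE share was near that of all genes, and the SRSF3-OE share was below it. DSP, which anchors keratin filaments, measured 824, 867 and 872 CPM in 3xCTL, 1095, 979 and 1019.7 in libraries labelled 3xSR and 1091, 1077 and 1127 in MYC-OE, all above the controls (edgeR log2 fold change 0.27, SE 0.0529, adjusted p = 0.00234; edgeR log2 fold change 0.36, SE 0.0529, adjusted p = 0.000229). In 1xCtrl it measured 1050.1, 1005 and 1072, in libraries labelled SRSF2-OE 852, 862 and 849 and in SRSF7-OE 787, 792 and 686, all below the controls (edgeR log2 fold change -0.29, SE 0.08, adjusted p = 0.0193; edgeR log2 fold change -0.47, SE 0.0801, adjusted p = 0.00205). SRSF3-OE overlapped 1xCtrl, with 1256, 1012 and 1142 CPM (0.12, edgeR adjusted p = 0.28).

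The desmosomal cadherin genes DSC3, DSC2, DSG3 and DSG2 lie in 1 cluster on chromosome 18 between 30990008 and 31549008. In SRSF7-OE DSC2 measured 51.7, 52.6 and 50 CPM against 79.6, 65.8 and 81.8 in 1xCtrl (edgeR log2 fold change -0.56, SE 0.0812, adjusted p = 0.000826). DSG3, the pemphigus antigen of basal layers, measured 48.5, 49.6 and 43.1 against 72.4, 61.1 and 72.7 (edgeR log2 fold change -0.55, SE 0.0823, adjusted p = 0.00105). DSC3 was also lower (-0.45, edgeR adjusted p = 0.0029). DSG2 missed the threshold (-0.20, edgeR adjusted p = 0.11) and passed without 1xCtrl replicate 2 (-0.27, edgeR adjusted p = 0.00423) or SRSF7-OE replicate 2 (-0.25, edgeR adjusted p = 0.0479). In SRSF3-OE DSC2 was at -0.14 (edgeR adjusted p = 0.224), and it passed without 1xCtrl replicate 2 (-0.24, edgeR adjusted p = 0.00678). In libraries labelled SRSF2-OE all 4 were lower. DSG2 measured 254, 242 and 249.8 CPM against 376, 305 and 364 (edgeR log2 fold change -0.49, SE 0.0798, adjusted p = 0.00081). DSC2 measured 57, 55.4 and 58.3 (edgeR log2 fold change -0.41, SE 0.0811, adjusted p = 0.00261). DSG3 measured 54.5, 50.8 and 51.3 (edgeR log2 fold change -0.40, SE 0.0822, adjusted p = 0.00363). DSC3 was lower by the same test (-0.31, edgeR adjusted p = 0.0166). Each of these called groups lay wholly below 1xCtrl, in which replicate 2 was the lowest for all 4 cadherins.

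In the first table DSC3 was higher in both lines, with 132, 139 and 138 CPM in 3xCTL, 177, 169 and 169.9 in libraries labelled 3xSR and 172, 172 and 161 in MYC-OE (edgeR log2 fold change 0.34, SE 0.0483, adjusted p = 0.000279; edgeR log2 fold change 0.30, SE 0.0482, adjusted p = 0.00041). With the GC trend removed the 3xSR value of DSC3 was 0.19, edgeR adjusted p = 0.00228. DSG3 was higher in libraries labelled 3xSR (0.27, edgeR adjusted p = 0.00258), and DSC2 was lower in MYC-OE (-0.22, edgeR adjusted p = 0.00989). DSC2 and DSG2 missed the threshold in 3xSR (0.15 and 0.11) and passed without 3xCTL replicate 2 (0.18, edgeR adjusted p = 0.0166 for DSC2; 0.16, edgeR adjusted p = 0.0173 for DSG2). The lines of the second table differed directly. SRSF7-OE was lower than SRSF3-OE in DSP (-0.59), DSG2 (-0.31), DSG3 (-0.46), DSC2 (-0.42), DSC3 (-0.43) and PKP1 (-0.25), with edgeR adjusted p from 8.58e-05 in DSP to 0.0245 in PKP1. With the GC trend removed the differences in DSG2, DSC3 and PKP1 were -0.19, -0.28 and -0.39. The PKP1 difference was lost without any 1 of SRSF3-OE replicate 1 or 2 or 3 or SRSF7-OE replicate 1 or 2 or 3 (-0.27 to -0.19, edgeR adjusted p 0.0716 to 0.209). This call was not made either with total counts alone or no filter (edgeR adjusted p from 0.137 to 0.199). Over all 40 genes, 24 differed between SRSF7-OE and SRSF3-OE, 12 higher and 12 lower, where 35.2% of all genes passed (17.3% and 17.8%). SRSF7-OE and libraries labelled SRSF2-OE differed in 23 of 40, 7 higher and 16 lower in SRSF7-OE, where 24.2% of all genes passed (12.8% and 11.5%), and among desmosome genes in DSG2 alone (0.29, edgeR adjusted p = 0.0181; 0.0532 with upper-quartile scaling).

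PKP1, the plakophilin of stratified epithelia, measured 239.5, 189.6 and 225 CPM in 3xCTL, 183, 181 and 179 in libraries labelled 3xSR and 179, 174 and 168 in MYC-OE (edgeR log2 fold change -0.27, SE 0.0726, adjusted p = 0.0161; edgeR log2 fold change -0.33, SE 0.0726, adjusted p = 0.00388). Its call in 3xSR was lost without any 1 of 3xCTL replicate 1 or 3 or 3xSR replicate 3 (-0.26 to -0.21, edgeR adjusted p 0.0583 to 0.065). With the GC trend removed the value was -0.14, edgeR adjusted p = 0.0367. PKP2 was higher by 0.17 in libraries labelled 3xSR and 0.19 in SRSF3-OE (edgeR adjusted p = 0.0409 and 0.0474). In SRSF3-OE it measured 96.6, 87.5 and 91.1 CPM against 83.9, 74.5 and 83 in 1xCtrl. The call in 3xSR was lost without any 1 of 3xCTL replicate 3 or 3xSR replicate 1 or 2 or 3 (0.11 to 0.19, edgeR adjusted p 0.0658 to 0.163). Nor did it pass with total counts alone, no filter, the GC trend removed or a fit of the 2 groups alone (edgeR adjusted p from 0.0578 to 0.0953). The call in SRSF3-OE was lost without any 1 of 1xCtrl replicate 1 or 2 or 3 or SRSF3-OE replicate 1 or 3 (0.10 to 0.17, edgeR adjusted p 0.105 to 0.276). It was also lost with upper-quartile scaling, total counts alone, no filter, a minimum of 10 counts in every library, DESeq2 or a fit of the 2 groups alone (adjusted p from 0.052 to 0.37). In SRSF3-OE PKP1 had a log2 fold change of 0.15 (edgeR adjusted p = 0.178), and without 1xCtrl replicate 2 of 0.22, edgeR adjusted p = 0.0288. PKP3 and JUP passed in none of the 5 contrasts and were spread in the controls, PKP3 from 20.6 to 60.5 CPM and JUP from 134 to 246 in 1xCtrl, each highest in replicate 2. Without that library JUP was higher in libraries labelled SRSF2-OE (0.62, edgeR adjusted p = 0.00103) and in SRSF7-OE (0.73, edgeR adjusted p = 0.000513). PKP3 was higher in both as well (0.81 in SRSF2-OE and 0.84 in SRSF7-OE, edgeR adjusted p = 0.0156 and 0.0141). The controls left were those low in GC-rich genes. With the GC trend removed and all libraries kept, JUP was at 0.36 and 0.31 in these lines (edgeR adjusted p = 0.00021 and 0.00112). PKP3 was then at 0.38 in SRSF2-OE (edgeR adjusted p = 0.000911) and did not pass in SRSF7-OE. Without 3xCTL replicate 2 both were lower in 3xSR (PKP3 -0.70 and JUP -0.40, edgeR adjusted p = 5.68e-06 and 2.61e-05). With the GC trend removed PKP3 was at -0.16 there (edgeR adjusted p = 0.00833), and JUP did not pass.

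SFN, the 14-3-3 protein of keratinocytes, and PERP, a desmosome-associated membrane protein controlled by TP63, gave 1 call in 10 tests. SFN was higher in MYC-OE, at 177, 169 and 188 CPM against 153, 92.6 and 136 in 3xCTL (edgeR log2 fold change 0.48, SE 0.162, adjusted p = 0.0492). The call was lost without any 1 of 3xCTL replicate 3 or MYC-OE replicate 1 or 2 or 3 (0.45 to 0.54, edgeR adjusted p 0.0813 to 0.126). The test also missed the threshold with RLE scaling, total counts alone, no filter or a fit of the 2 groups alone (edgeR adjusted p from 0.0503 to 0.111). Without 3xCTL replicate 2 the MYC-OE value was 0.30, edgeR adjusted p = 0.0024. In 3xSR its log2 fold change was -0.01 (edgeR adjusted p = 0.978), and without 3xCTL replicate 2 -0.19, edgeR adjusted p = 0.03. With the GC trend removed the 3xSR value was 0.27, edgeR adjusted p = 0.00182. In 1xCtrl SFN measured 97.5, 179 and 69 CPM, highest in replicate 2. Without that library it was higher in libraries labelled SRSF2-OE (1.05, edgeR adjusted p = 0.00389), in SRSF3-OE (1.08, edgeR adjusted p = 0.00315) and in SRSF7-OE (0.94, edgeR adjusted p = 0.00748), against 0.59, 0.62 and 0.46 with it (edgeR adjusted p = 0.203, 0.162 and 0.348). With the GC trend removed and all libraries kept, SFN was at 0.74, 0.9 and 0.4 in these lines (edgeR adjusted p = 0.000445, 8.18e-05 and 0.0218). PERP had log2 fold changes from -0.20 in SRSF7-OE to 0.21 in SRSF3-OE (edgeR adjusted p = 0.0898 and 0.0533), and these lines differed directly by -0.41 (edgeR adjusted p = 0.000928). Without 1xCtrl replicate 2 the SRSF7-OE value passed (-0.26, edgeR adjusted p = 0.0064). The SRSF3-OE value passed without SRSF3-OE replicate 2 (0.22, edgeR adjusted p = 0.0156), and the 3xSR value without 3xCTL replicate 2 (0.19, edgeR adjusted p = 0.0145). With all libraries kept, PERP in SRSF3-OE also passed by DESeq2 and by limma-voom (0.21, adjusted p from 0.0387 to 0.0389).

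**Figure D5:**
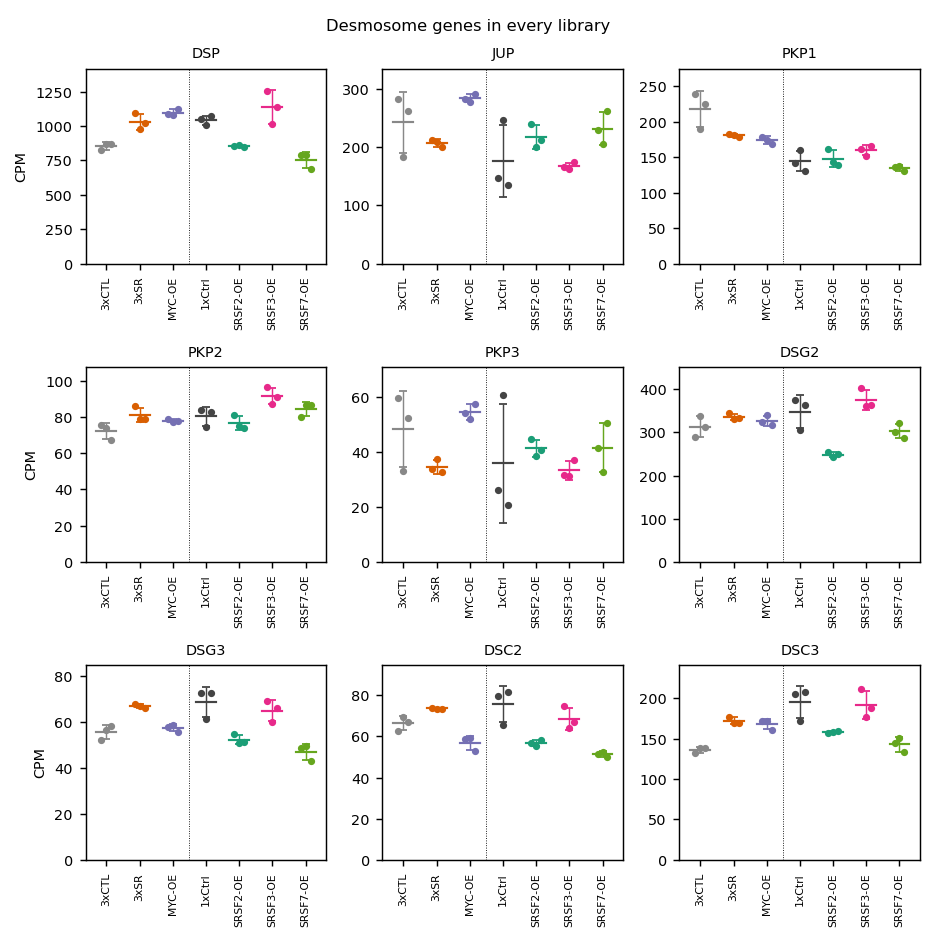
Level of desmosome genes in CPM (linear axis from 0) in every library; points are libraries, bars the mean and SD of 3, and the dotted line parts the 2 tables. DSP, DSG3, DSC2 and DSC3 are below 1xCtrl in SRSF2-OE and SRSF7-OE, and JUP and PKP3 show 1 high library in 1xCtrl.

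Other genes of squamous differentiation were counted from lists chosen, like the members, with earlier results of these data known. Of 36 tested late envelope and skin barrier genes, 15 were higher and 6 lower in libraries labelled 3xSR, 21 and 4 in MYC-OE, 9 and 8 in libraries labelled SRSF2-OE, 2 and 15 in SRSF3-OE and 4 and 7 in SRSF7-OE, with medians of 0.30, 0.62, 0.01, -0.42 and -0.11. These genes passed in 58.3%, 69.4%, 47.2%, 47.2% and 30.6% of tests in the 5 contrasts, beside 29%, 35.3%, 23.5%, 29.2% and 17.3% of all genes. PI3 (elafin), an elastase inhibitor cross-linked into the envelope, rose in libraries labelled 3xSR (from 8.77 CPM ± 0.633 to 44.3 ± 1.79, edgeR log2 fold change 2.34, SE 0.0635, adjusted p = 7.77e-10). LCE3D, a late cornified envelope gene, rose in MYC-OE (from 0.179 CPM ± 0.118 to 2.5 ± 0.224, edgeR log2 fold change 3.79, SE 0.464, adjusted p = 0.000249). It rose as well in libraries labelled SRSF2-OE (from 0.469 CPM ± 0.0894 to 2.17 ± 0.611, edgeR log2 fold change 2.21, SE 0.254, adjusted p = 6.18e-05). SPINK5, an inhibitor of the kallikrein proteases that shed skin cells, fell in SRSF3-OE (from 14.4 CPM ± 1.53 to 2.93 ± 0.239, edgeR log2 fold change -2.30, SE 0.107, adjusted p = 3.05e-08). SPINK5 also fell in SRSF7-OE (from 14.4 CPM ± 1.53 to 9.1 ± 0.774, edgeR log2 fold change -0.66, SE 0.102, adjusted p = 0.00117). KLK5, one of those proteases, was higher in SRSF3-OE (from 79.3 CPM ± 7.97 to 122 ± 4.36, edgeR log2 fold change 0.61, SE 0.0702, adjusted p = 3.42e-05). It was also higher in SRSF7-OE (from 79.3 CPM ± 7.97 to 111 ± 4.86, edgeR log2 fold change 0.48, SE 0.0701, adjusted p = 0.000809). KLK10 was higher in SRSF7-OE (from 48 CPM ± 4.63 to 82.1 ± 4.16, edgeR log2 fold change 0.78, SE 0.069, adjusted p = 3.06e-05). Most of these genes were called in further lines. PI3 was also higher in MYC-OE and SRSF2-OE libraries, and KLK10 in the same lines. LCE3D was also higher in 3xSR and lower in SRSF3-OE. In MYC-OE SPINK5 and KLK5 were higher, and in SRSF2-OE libraries both were lower.

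Of the other clade B serpins, 5 of 9 were higher and 1 lower in libraries labelled 3xSR, 4 and 2 in MYC-OE, and of 10 tested 4 and 0 in libraries labelled SRSF2-OE, 4 and 3 in SRSF3-OE and 1 and 2 in SRSF7-OE. SERPINB2, an inhibitor of plasminogen activators, rose in SRSF3-OE (from 53 CPM ± 6.14 to 192 ± 10.9, edgeR log2 fold change 1.86, SE 0.0892, adjusted p = 3.56e-08). SERPINB13 fell in the same line (from 64.4 CPM ± 5.89 to 35.9 ± 1.68, edgeR log2 fold change -0.85, SE 0.0685, adjusted p = 2.04e-06). SERPINB1 rose in MYC-OE (from 10.2 CPM ± 0.687 to 47.1 ± 1.18, edgeR log2 fold change 2.20, SE 0.0687, adjusted p = 9.82e-10). Of the other S100 genes, 1 of 11 was higher and 3 lower in libraries labelled 3xSR, 2 and 1 in MYC-OE, and of 10 tested 5 and 1 in libraries labelled SRSF2-OE, 2 and 2 in SRSF3-OE and 5 and 0 in SRSF7-OE. S100A4, linked to mesenchymal cells, fell in MYC-OE (from 25.6 CPM ± 1.04 to 13.1 ± 0.512, edgeR log2 fold change -0.97, SE 0.078, adjusted p = 1.91e-06). It fell in SRSF3-OE as well (from 16.1 CPM ± 1.24 to 8.61 ± 0.803, edgeR log2 fold change -0.90, SE 0.0966, adjusted p = 2.09e-05). S100P rose in libraries labelled SRSF2-OE (from 2.35 CPM ± 0.157 to 6.95 ± 0.267, edgeR log2 fold change 1.57, SE 0.137, adjusted p = 8.32e-06). These changes were shared between lines. SERPINB1 and S100P were called higher in all 5 contrasts. In SRSF3-OE the S100P call was lost with upper-quartile scaling, total counts alone or no filter (edgeR adjusted p from 0.0994 to 0.131). It was also lost with a minimum of 10 counts, limma-voom or the 2 groups alone (adjusted p from 0.051 to 0.187). The same held without any 1 of 1xCtrl replicate 1 or 2 or 3 or SRSF3-OE replicate 1 or 3 (edgeR adjusted p 0.0752 to 0.301). SERPINB2 was higher and S100A4 lower in every line but SRSF7-OE. SERPINB13 was also lower in MYC-OE and SRSF7-OE.

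Of 14 other desmosomal and adherens junction genes, 2 were higher and 4 lower in libraries labelled 3xSR, 5 and 0 in MYC-OE, 3 and 5 in libraries labelled SRSF2-OE, 2 and 5 in SRSF3-OE and 1 and 4 in SRSF7-OE. CDH1, E-cadherin, was lower in libraries labelled 3xSR (from 443 CPM ± 20.8 to 379.6 ± 4.07, edgeR log2 fold change -0.22, SE 0.0479, adjusted p = 0.00426). NECTIN4 was lower in SRSF3-OE (from 32.6 CPM ± 1.88 to 19.8 ± 0.0894, edgeR log2 fold change -0.72, SE 0.0665, adjusted p = 6.52e-06). Of 28 other squamous and Notch regulators, 11 were higher and 7 lower in libraries labelled 3xSR, 8 and 6 in MYC-OE, 7 and 4 in libraries labelled SRSF2-OE, 5 and 6 in SRSF3-OE and 5 and 2 in SRSF7-OE. PRDM1 and ZNF750, factors of terminal epidermal differentiation, were higher in MYC-OE. PRDM1 rose from 0.69 CPM ± 0.05 to 2.14 ± 0.321, edgeR log2 fold change 1.64, SE 0.146, adjusted p = 4.47e-06. ZNF750 rose from 0.63 CPM ± 0.15 to 1.79 ± 0.31, edgeR log2 fold change 1.50, SE 0.197, adjusted p = 0.000101. NOTCH3 fell in libraries labelled SRSF2-OE (from 175 CPM ± 59.2 to 91.9 ± 6.66, edgeR log2 fold change -0.93, SE 0.204, adjusted p = 0.0088; -0.99, edgeR adjusted p = 0.0534 in a fit of the 2 groups alone). BARX2 rose in SRSF7-OE (from 2.56 CPM ± 0.228 to 6.42 ± 0.385, edgeR log2 fold change 1.32, SE 0.114, adjusted p = 2.52e-05). It was also higher in MYC-OE and lower in SRSF3-OE. PRDM1 and ZNF750 were also higher in libraries labelled 3xSR and SRSF2-OE. NECTIN4 was also lower in SRSF2-OE libraries and SRSF7-OE, and CDH1 in SRSF3-OE. NOTCH3 was also lower in SRSF3-OE (-0.64), a call lost with no filter or a fit of the 2 groups alone (edgeR adjusted p = 0.0876 and 0.113). It was lost too without any 1 of 1xCtrl replicate 1 or 2 or SRSF3-OE replicate 1 or 2 or 3 (edgeR adjusted p 0.0506 to 0.114). Without 1xCtrl replicate 2 the NOTCH3 value was -0.35. With the GC trend removed it was -0.42, edgeR adjusted p = 3.19e-05. As shares of the genes tested, in the order 3xSR, MYC-OE, SRSF2-OE, SRSF3-OE and SRSF7-OE, the regulators passed in 64.3%, 50%, 39.3%, 39.3% and 25%, and the junction genes in 42.9%, 35.7%, 57.1%, 50% and 35.7%. The other clade B serpins passed in 66.7%, 66.7%, 40%, 70% and 30%, and the other S100 genes in 36.4%, 27.3%, 60%, 40% and 50%. The shares of all genes were 29%, 35.3%, 23.5%, 29.2% and 17.3%. Shares near those of all genes, such as the regulators in SRSF7-OE, show nothing particular to a list, and the other S100 genes lay below the share of all genes in MYC-OE. The medians of these 4 lists lay between -0.14 and 0.37 over the 5 contrasts, beside -0.03 to 0.00 for all genes tested.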

How the data were processed

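PolyA-selected RNA of 21 HCC1806 libraries (7 groups of 3, groups from the labels) was sequenced as paired 150-base reads, per the labels' protocols. Trimmomatic 0.39, STAR, StringTie 2.1.3b and GRCh38.p13 are named in the submitters' processing notes; the annotation release and strand setting are not given in the sources used here. The deposited values are raw counts per gene in 2 tables, each with 60668 Ensembl identifiers, 58516 of which matched GENCODE release 29; the tables were never compared directly.

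Genes were filtered with filterByExpr (minimum count 10, minimum total 15), scaled by TMM and tested per table, with all its groups in 1 fit, by edgeR 4.0.16's quasi-likelihood F test in R 4.3.3; p-values were Benjamini-Hochberg adjusted over all genes tested, with a threshold of 0.05. The SE is the size of the log2 fold change over the square root of F. CPM used the TMM-scaled library size. Alternatives were RLE and upper-quartile scaling, total counts alone, no filter, 10 counts in every library, DESeq2 1.42.0, limma-voom (limma 3.58.1), the 2 groups alone, a replicate block, removal of each library's GC trend (50 bins) and leaving out each library. Depth was 143269192 to 303323552 counts per library, and intervals or floors cover counting error only.

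The members and lists were chosen with earlier results of these data known. Per-library values are given for up to 4 members with the highest and up to 4 with the lowest log2 fold change per contrast among those called with a mean of at least 1 CPM; others chosen for their role were named after their values were seen. Of each pathway list, up to 2 highest and 2 lowest called genes per contrast could be named, and calls of a named gene in other contrasts are noted. Sequences are RefSeq promoters (GRCh38.p14) and GENCODE release 29 transcripts. A marker of the immune list is not reported here and is left out of that list's sums.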

Additional observations from a re-analysis of the deposited data

How the results depend on the processing

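Of 105 calls in 200 tests of a member against its control, 85 passed under every alternative run and 20 were lost under at least 1, while 39 of the 95 tests not called passed under at least 1. The number of members called stayed within 1.5 times its reported value under every alternative in all 9 contrasts, except in SRSF7-OE against 1xCtrl, where 10 became 20 (8 higher, 12 lower) with the GC trend removed and 18 (10 higher, 8 lower) without 1xCtrl replicate 2. Leaving out each library in turn gave 24 to 36 called in 3xSR, 22 to 29 in MYC-OE, 21 to 25 in SRSF2-OE, 13 to 17 in SRSF3-OE, 10 to 18 in SRSF7-OE, 17 to 20 in MYC-OE against 3xSR, 23 to 27 in SRSF3-OE against SRSF2-OE, 19 to 22 in SRSF7-OE against SRSF2-OE and 19 to 23 in SRSF7-OE against SRSF3-OE. Removing the GC trend reversed 6 log2 fold changes among tests that passed with or without it. SFN in 3xSR became 0.27, PKP3 in SRSF3-OE 0.26 and EVPL in MYC-OE against 3xSR -0.33. DSC3 in the last of these contrasts became 0.13, and EVPL and PKP3 in SRSF7-OE against SRSF2-OE became -0.23 and -0.31. Changes of sign between values that passed in neither fit were not counted, and the cause was not tested. Scaling by total counts alone moved the median of all genes in SRSF3-OE from -0.03 to -0.14. Libraries with the same number showed little or no positive shared deviation (mean correlation from -0.4 in SRSF7-OE to 0.069 in SRSF7-OE against SRSF2-OE). In SRSF7-OE against 1xCtrl it was -0.594 and -0.503 for replicates 2 and 3. Since libraries also differed in GC trend, these values cannot show whether libraries were paired. With the replicate block 29, 26, 21, 15 and 10 members were called in 3xSR, MYC-OE and the lines of SRSF2, SRSF3 and SRSF7, and 24, 25, 21 and 23 in the direct contrasts, in the order above. The block ended 4 calls against a control (ELF3 in MYC-OE, TGM1 and S100A2 in SRSF2-OE, PKP2 in SRSF3-OE). With 3 libraries a group and SPRR2A at 0 to 63 counts, no size is given for its changes.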
